A study of Caenorhabditis elegans with 2 samples.

Results

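The 10 genes described here encode proteins that build and move the spindle of the nematode Caenorhabditis elegans, and the data show where the zinc-finger protein LSL-1 was found at them. They were taken from a list of 10 symbols, which all matched 1 protein-coding gene each among the 19973 on the nuclear chromosomes in the Ensembl annotation of assembly WBcel235 (ce11). The list holds 7 kinesin genes (klp-7, klp-15, klp-16, klp-18, klp-19, zen-4 and bmk-1), the 2 katanin subunit genes mei-1 and mei-2, and aspm-1. Katanin and ASPM-1 are not motors themselves, so the set is broader than spindle motors in the strict sense.

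Chromatin immunoprecipitation followed by sequencing (ChIP-seq) had been carried out on whole young adults of strain OP720, of mixed sex and 69 h old, after synchronisation by starvation of first-stage larvae. The strain carries unc-119(tm4063) and the transgene wgIs720, which encodes LSL-1 with a C-terminal TY1, EGFP and 3xFLAG tag and a rescuing copy of unc-119, and an antibody against GFP was used. There was 1 group of 2 biological replicates, so nothing could be compared between conditions, and the replicates were compared with each other only. The files hold peaks and no transcript levels, so the cells in which the protein was bound cannot be told from whole animals. Replicate 1 has a deposited list of 30000 called regions, replicate 2 one of 26018, and the pooled reads one of 30000. A list of 3897 peaks remains after filtering by irreproducible discovery rate (IDR), a measure of whether a peak has a similar rank in the replicates. Read counts are not in these lists, so the depth behind each peak is unknown. No untagged strain was analysed here, and what signal independent of the tagged protein adds to any peak was not tested.

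In oocytes the meiotic spindle forms without centrosomes. Microtubules are cut and sorted around the chromosomes by katanin, kinesins and pole proteins, whereas the embryo's mitotic spindle uses centrosomes and needs katanin to be removed. Kinesins are ATP-driven motors that walk along microtubules or, in the kinesin-13 family, take them apart from their ends.

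LSL-1 peaks were found at the promoters of nearly all of these genes, and most of the peaks were strong. Of the 10 genes, 9 had an IDR summit, the base of highest signal in a peak, between 1000 bp upstream and 200 bp downstream of the annotated 5' end, against 14.2% of all 19973 protein-coding genes. All 10 genes are autosomal, and on autosomes alone the share over all genes was 16.3%. Peaks were ranked by the deposited signal value, with rank 1 the strongest of 3897. The strongest promoter peak of each of the 9 bound genes had a median rank of 159, against 1443.5 over the 2836 bound protein-coding genes. It was among the first 974 ranks for 7 of the 9, against 35.5% of all bound genes. Among the first 100 ranks were 4 of the 9 (aspm-1, klp-18, bmk-1 and klp-15), against 4.2% of all bound genes. The gene without a promoter peak was klp-7.

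**Figure D1:**
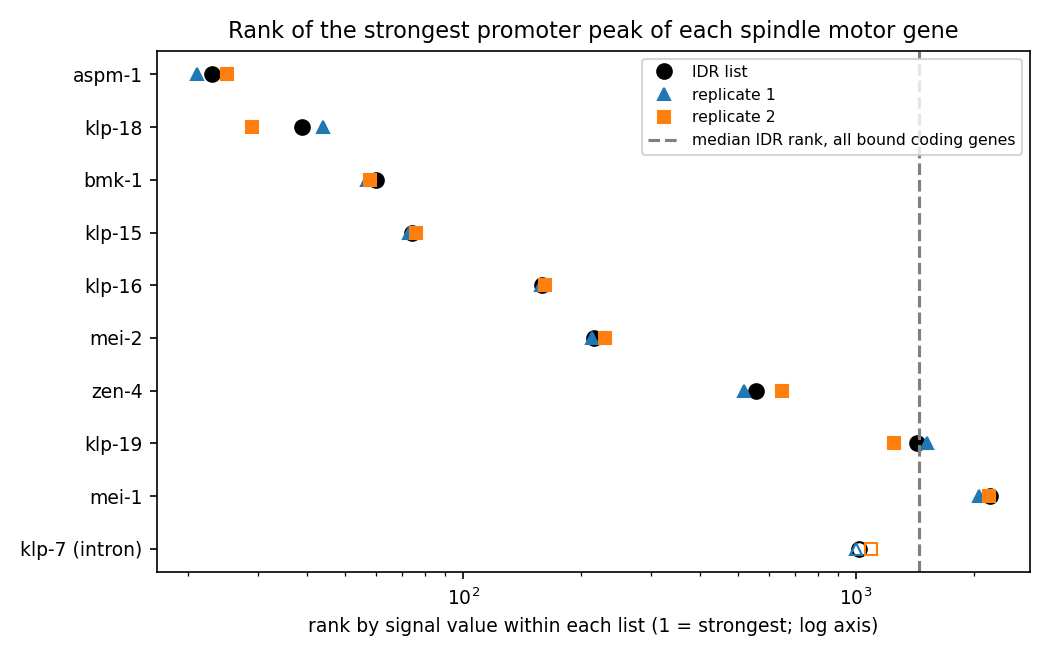
Rank by deposited signal value of the strongest promoter peak of each bound gene (log axis, 1 is strongest) in the IDR list (circles) and of the nearest summit in the lists of replicate 1 (triangles) and replicate 2 (squares); open symbols show the intronic peak of klp-7, which lies outside the promoter window, and the dashed line is the median IDR rank of 1443.5 over all bound protein-coding genes. Ranks in the IDR list run from 23 for aspm-1 to 2192 for mei-1, and the 3 symbols of a gene lie close together.

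The summit sequences of klp-18, bmk-1, zen-4 and klp-19 are printed here because they show what lay under promoter peaks that ran from very strong to middling. They are read 5' to 3' on the strand of the gene from the RefSeq assembly of WBcel235, 50 bases to each side of the summit. Capitals mark matches, on either strand, to 6 words. ACTGTA is the first, and a second word, ACAGTA, overlaps its reverse complement. A further word, CTACAG, often overlaps both, and these 3 are called the ACTGTA group below. GGCGCA and the similar ACGCGC are the next words. The first 3 had led a word count over all peaks of the same data, and all 5 were chosen with earlier results of these data known. The last word, TTCGCGC, was picked after the sequences printed here were seen. The klp-18 sequence is chrIV:7039852-7039952 on the plus strand, and zen-4 is chrIV:6117901-6118001 on the plus strand. The bmk-1 sequence is chrV:14457226-14457326 on the minus strand. The klp-19 sequence, chrIII:13307260-13307306 on the minus strand, stops at the base before the annotated 5' end and so has 47 bases. It covers the upstream side only and leaves out the summit itself, 3 bp downstream of that end.
klp-18: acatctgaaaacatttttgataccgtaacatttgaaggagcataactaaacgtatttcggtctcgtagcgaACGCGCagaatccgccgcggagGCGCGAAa
bmk-1: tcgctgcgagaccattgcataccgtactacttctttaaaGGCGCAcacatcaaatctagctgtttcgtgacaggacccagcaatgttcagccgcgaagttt
zen-4: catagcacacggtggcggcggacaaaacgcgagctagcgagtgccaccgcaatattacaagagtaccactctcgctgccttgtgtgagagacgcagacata
klp-19: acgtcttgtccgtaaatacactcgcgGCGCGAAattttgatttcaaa

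Of the 9 promoter summits, 4 (bmk-1, mei-2, klp-18 and aspm-1) held at least 1 of the 5 counted words within 50 bp, near the 46.8% of all 3897 IDR summits, a pooling of words chosen after seeing the data. At least 1 word of the ACTGTA group lay within 50 bp of 1 of the 9 promoter summits, that of aspm-1, against 27.3% of all IDR summits and 13.3% of the 26103 lower-ranked pooled summits. GGCGCA lay at 2 of the 9, bmk-1 and mei-2, against 18.2% of IDR summits and 3.31% of lower-ranked ones. ACGCGC lay at klp-18 alone of the 9, against 14.2% and 3.08%. TTCGCGC (read from the other strand as GCGCGAA) lay at 3 of the 9, aspm-1, klp-18 and klp-19, against 4.39% of IDR summits and 0.889% of lower-ranked ones. It was chosen from these sequences, so its count at these genes supports nothing. No match was found within 50 bp of the klp-15, klp-16, mei-1 and zen-4 promoter summits, where the GC content of the 101 bases ran from 33.7% at mei-1 to 55.4% at zen-4.

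The strongest peak of the set was at aspm-1 (WBGene00008107; chromosome I, 9221818 to 9226390, minus strand), which encodes a spindle pole protein related to human ASPM that acts with LIN-5 and calmodulin at the poles of the oocyte spindle. Its rank was 23 in the IDR list, 21 in replicate 1 and 25 in replicate 2. The deposited signal value was 2233.67 in replicate 1 and 737.467 in replicate 2, on scales that differ between lists. The summit lay in intergenic sequence 276 bp upstream of aspm-1 and 239 bp upstream of lipt-1, which is read the other way, so position alone does not tell which gene it belongs to. The gene peak closest to it by rank in both replicates was shared by T19H12.2 and ugt-12, with ranks 25 and 24.

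Next came klp-18 (WBGene00002228; IV, 7040211 to 7043694, plus strand), a kinesin-12 needed for a bipolar oocyte spindle. Its peak ranked 39 in the IDR list, 44 in replicate 1 and 29 in replicate 2, and the replicate summits lay 0 and 5 bp from the IDR summit. It was nearly midway between divergent genes, 309 bp upstream of klp-18 and 322 bp upstream of cogc-2, which encodes a subunit of the conserved oligomeric Golgi complex. The gene with the most similar replicate ranks was tam-1 (43 and 35). The partner of KLP-18 in the oocyte spindle, MESP-1, is encoded by a gene that also had a promoter peak, of rank 414.

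The kinesin-5 gene bmk-1 (WBGene00000257; V, 14453302 to 14456984, minus strand) had a peak of rank 60, with 57 in replicate 1 and 58 in replicate 2. Kinesin-5 motors slide antiparallel microtubules apart. The summit was closer to the neighbouring meiotic cohesin gene coh-3 (146 bp upstream) than to bmk-1 (292 bp upstream). Its replicate ranks were most like those of the oocyte maturation gene oma-2 (52 and 59).

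The kinesin-14 genes klp-15 and klp-16 encode closely similar minus-end-directed motors that organise microtubules in the oocyte spindle. Their coding sequences have 1761 bases each and were identical at 1651 positions (93.8%), with a longest identical run of 87 bases. At klp-15 (WBGene00002225; I, 5577070 to 5579194, minus strand) the peak ranked 74, with 73 in replicate 1 and 76 in replicate 2, and its summit lay 100 bp upstream of the gene. The same called interval of 660 bp held another summit 341 bp upstream of klp-15, of rank 2364 in the IDR list. The nearest replicate summits lay 42 and 44 bp from it and ranked 718 in replicate 1 and 843 in replicate 2. The weaker IDR summit was closer to the divergent gene ctnb-1 (131 bp) than to klp-15.

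At klp-16 (WBGene00002226; I, 9512452 to 9514637, plus strand) the peak ranked 159, with 158 in replicate 1 and 162 in replicate 2, and the summit lay 51 bp upstream. It was shared with smn-1, the gene for the survival of motor neuron protein that assembles spliceosomal particles, whose 5' end is 216 bp away, and the window of the microRNA gene cel-mir-4932 held it too. The 660 bp interval at klp-15 and the 526 bp interval at klp-16 shared no identical run longer than 31 bases. The sources used here do not say how reads that match both copies had been placed.

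The katanin subunits differed in their peaks. At mei-2 (WBGene00003184; I, 6564749 to 6565852, minus strand), the regulatory subunit gene, the peak ranked 215 in the IDR list, 213 in replicate 1 and 230 in replicate 2. Its summit lay 169 bp upstream of mei-2 and was closer to the synaptonemal complex gene syp-6, which is read the other way and whose 5' end is 273 bp from that of mei-2. At mei-1 (WBGene00003183; I, 8294874 to 8296940, plus strand), which encodes the ATPase subunit that cuts microtubules, the only IDR peak had rank 2192, with 2052 in replicate 1 and 2176 in replicate 2. Its summit lay 897 bp upstream of mei-1 and 337 bp upstream of the divergent nuclear pore gene npp-2. Closer to mei-1 only pooled regions below the IDR threshold were found, of rank 6657 at 691 bp and 21285 at 54 bp upstream. Of the 9 bound genes, mei-1 had the weakest peak and the most distant one.

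The late-mitotic and chromosome-bound kinesins had intermediate peaks. At zen-4 (WBGene00006974; IV, 6118215 to 6121777, plus strand), the kinesin-6 of the centralspindlin complex that bundles midzone microtubules for cytokinesis, the peak ranked 555, with 519 in replicate 1 and 647 in replicate 2. Its summit lay 264 bp upstream, and it was the only promoter peak of the set that no other protein-coding promoter window held, although the window of the snoRNA gene M03D4.78 did. At klp-19 (WBGene00002229; III, 13302717 to 13307259, minus strand), a kinesin-4 that acts on chromosome alignment, the peak ranked 1428, with 1514 in replicate 1 and 1249 in replicate 2. The summit lay 3 bp downstream of the 5' end, in the annotated 5' untranslated region, and 246 bp upstream of slc-36.1. The klp-19 interval was 227 bp wide, against a median of 526 bp for the 9 genes and 414.5 bp for all bound genes.

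All 9 promoter peaks were supported in both replicates, against 86.1% of all bound genes, where support means a summit within 100 bp among the 3897 strongest regions of each replicate. IDR peaks were selected from these same replicates, so this share describes the peaks and is no separate check. In order of IDR rank, the neighbours aspm-1 (21 and 25 in replicates 1 and 2) and klp-18 (44 and 29) did not overlap in their replicate ranks, nor did bmk-1 (57 and 58), klp-15 (73 and 76), klp-16 (158 and 162), mei-2 (213 and 230) and zen-4 (519 and 647). The range of klp-19 (1249 to 1514) lay below that of mei-1 (2052 to 2176). The ranks of the 9 genes thus ran in the same order in both replicates. IDR filtering favours peaks of similar rank in the replicates, so this order too is no separate check.

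Nearly all of these promoters were divergent. The strongest promoter peak also lay in the window of another protein-coding gene for 8 of the 9 bound genes, against 54.5% of all bound genes, and in each of the 8 the neighbour was on the opposite strand, against 51.8%. The 5' ends of the pairs were between 216 bp (klp-16 and smn-1) and 1234 bp (mei-1 and npp-2) apart. The summit was closer to the spindle gene at klp-15, klp-16, klp-18 and klp-19, and closer to the neighbour at bmk-1, mei-1, mei-2 and aspm-1. When each peak was given only to the gene with the closest 5' end, 5 of the 10 spindle genes kept a peak (klp-15, klp-16, klp-18, klp-19 and zen-4), against 10.2% of all genes.

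**Figure D2:**
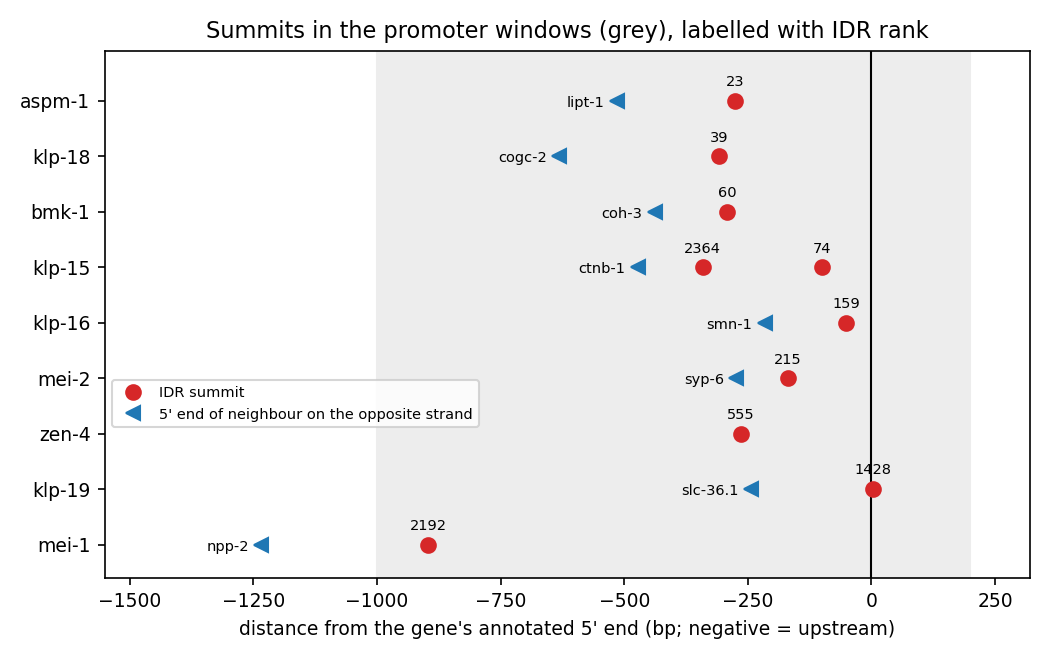
Position of each IDR summit (circles, labelled with IDR rank) relative to the annotated 5' end of the spindle gene, in bp, with the 5' end of the neighbour on the opposite strand (triangles) and the promoter window in grey. All summits but that of klp-19, which lies 3 bp downstream, are upstream of the gene and, where there is a neighbour, between both 5' ends; zen-4 has no such neighbour.

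The kinesin-13 gene klp-7 (WBGene00002219; III, 10805925 to 10811001, plus strand), whose product takes microtubules apart from their ends, was bound around but not in the promoter window of its longer transcript. The window held no pooled region at all. An IDR peak of rank 1014, with 1002 in replicate 1 and 1092 in replicate 2, lay 1490 bp downstream of the 5' end in an intron. The window of the noncoding gene 21ur-9572 also held it. The annotation has a shorter transcript, K11D9.1b.1, that starts 2416 bp downstream, and this peak lay 926 bp upstream of that start. With the 5' ends of all transcripts in use, klp-7 counted as bound and the count was 10 of 10, against 15.2% of all genes.

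A weaker peak lay 1488 bp upstream of klp-7, with rank 3341 in the IDR list, 3372 in replicate 1 and 4758 in replicate 2, which is outside the 3897 strongest of replicate 2. Beyond the 3' end, 645 bp downstream and toward the convergent calcium pump gene sca-1, lay a peak of rank 716 (720 in replicate 1 and 614 in replicate 2). Another summit 857 bp downstream lay in nearly the same called interval, with the same start and 551 bp wide against 546 bp. This second summit had rank 2666 and rank 3385 in replicate 1, and no summit within 100 bp in replicate 2. The sequences of 3 of these klp-7 peaks are printed because their word content differs. They are chrIII:10804387-10804487 upstream, chrIII:10807365-10807465 in the intron and chrIII:10811596-10811696 downstream, all on the plus strand with capitals as before.
klp-7 upstream: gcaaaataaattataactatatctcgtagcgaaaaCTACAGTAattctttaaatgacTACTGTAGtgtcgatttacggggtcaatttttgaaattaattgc
klp-7 intron: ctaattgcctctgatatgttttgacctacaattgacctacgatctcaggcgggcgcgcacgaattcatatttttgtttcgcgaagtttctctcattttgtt
klp-7 downstream: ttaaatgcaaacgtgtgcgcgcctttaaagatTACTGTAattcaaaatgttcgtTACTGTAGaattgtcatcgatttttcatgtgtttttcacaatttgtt

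The upstream sequence holds words of the ACTGTA group in a pair of mirrored copies, with ACAGTA starting 13 bases before the summit and ACTGTA starting 8 bases after it. The downstream sequence holds ACTGTA in a pair of copies on the same strand, starting 17 bases before and 5 bases after the summit. The intronic sequence has none of the 6 words.

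**Figure D3:**
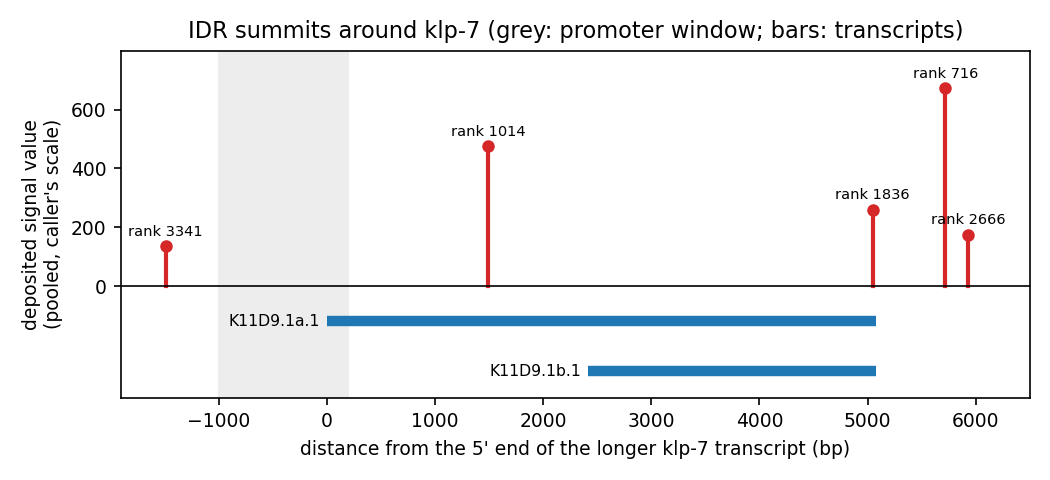
Deposited signal value of the 5 IDR summits around klp-7 against distance from the 5' end of its longer transcript (bp), with the promoter window in grey and the 2 transcripts as bars. No summit lies in the grey window, and the intronic summit of rank 1014 lies between the starts of the transcripts.

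An IDR summit lay within 200 bp of the annotated 3' end of 7 of the 10 genes, against 3.75% of all protein-coding genes, and of 6 of the 9 bound ones, against 13.4% of all bound genes. Within 100 bp the count was 3 of the 10, against 1.71% of all genes. Of the 53 related spindle genes described below, 7 (13.2%) had an IDR summit within 200 bp of the 3' end. The pattern was noticed in these data and carries no test. For 6 of the 10 the summit was outside every protein-coding promoter window, against 1.85% of all genes and 5.66% of the 53 related genes. The seventh gene, mei-2, had its summit 110 bp past the 3' end (rank 1282), in the window of the next gene on the same strand, bag-1, a co-chaperone gene.

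These 3' peaks ranked below the promoter peak of the same gene in each of the 6 genes that had one. The strongest was at klp-16, 153 bp past the 3' end, with rank 517 in the IDR list, 483 in replicate 1 and 657 in replicate 2. At klp-15 the summit lay 100 bp past the 3' end with rank 1605, and at bmk-1 163 bp past it with rank 3578, in the window of the noncoding RNA gene F23B12.12. The summits at klp-7 (rank 1836), klp-18 (rank 2698) and klp-19 (rank 3823) lay 29, 168 and 61 bp before the 3' end, in the annotated 3' untranslated region. The klp-19 peak ranked 4928 in replicate 2, so 6 of the 7 were among the strongest 3897 regions of both replicates. Convergent genes ended 321 bp (rmh-1), 361 bp (tspo-1), 364 bp (tin-9.1), 326 bp (F23B12.7) and 905 bp (sca-1) past the 3' ends of klp-15, klp-16, klp-18, bmk-1 and klp-7, and pgm-2 overlapped the end of klp-19 by 43 bp. The genes zen-4, mei-1 and aspm-1 had no IDR summit there.

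Words of the ACTGTA group lay within 50 bp of 3 of the 7 summits at 3' ends, against 27.3% of all IDR summits. These were the summits of klp-15, klp-16 and bmk-1, with CTACAG among the words at klp-15 and klp-16. The words started 38 to 40 bases from the summit at klp-15, 29 to 31 at klp-16 and 49 to 50 at bmk-1. The mei-2 summit there held GGCGCA, and those of klp-7, klp-18 and klp-19 held none of the 6 words. The bmk-1 sequence, chrV:14453089-14453189 on the minus strand, is shown as an example, with the word at its very edge.
bmk-1 3' end: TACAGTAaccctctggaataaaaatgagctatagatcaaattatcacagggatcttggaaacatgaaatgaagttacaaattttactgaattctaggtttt

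**Figure D4:**
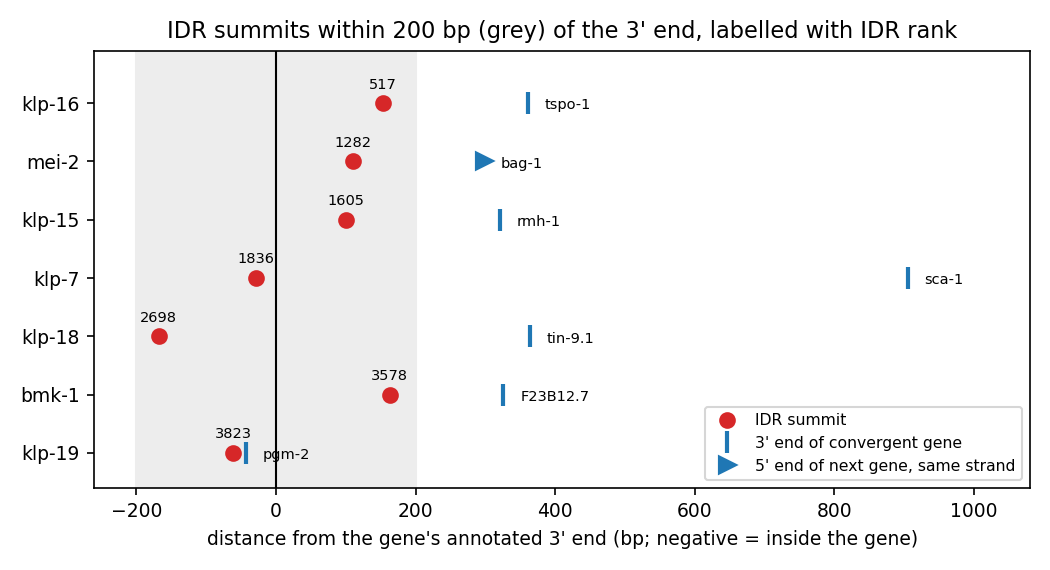
Position of IDR summits (circles, labelled with IDR rank) relative to the annotated 3' end of the 7 genes that had one within 200 bp, in bp, with the 3' end of the convergent gene (bars) or the 5' end of the next gene on the same strand (triangle). Summits at klp-16, mei-2, klp-15 and bmk-1 lie past the 3' end and those at klp-7, klp-18 and klp-19 inside the gene.

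Other kinesin genes, and genes with related spindle or microtubule roles, were bound less uniformly. Of 53 related genes in 7 lists, 26 (49.1%) had a promoter summit, against the 14.2% of all genes given above, and the median rank of the bound ones was 1527, near the 1443.5 of all bound genes. None of the 26 was among the first 100 ranks. With each peak given only to the closest gene, 22 of the 53 related genes kept one. In that setting 5 of the 10 spindle motor genes did, against 10.2% of all genes, so the 2 sets differed less. Other kinesin genes, taken whether or not they act on the spindle, make up 12 of the 53 and stood lowest of the 7 lists. Of these 12, 1 was bound (8.33%), near the 14.2% of all genes. The bound one was unc-116, the kinesin-1 heavy chain gene, with rank 1541 and a summit 476 bp upstream. The kinesin-2 gene klp-11 and the gene klp-13, which is on the X chromosome, had neither an IDR peak nor a pooled region in the window. The gene klp-12 had a pooled region of rank 11433.

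Partners of the set and katanin regulators were mixed, though the lists in this paragraph were bound more often than the 14.2% of all genes. Of the direct partners 3 of 4 were bound. The gene lin-5, which recruits dynein to spindle poles and the cortex, had rank 291, and mesp-1 had rank 414. The gene cyk-4, for the centralspindlin partner of ZEN-4, had rank 3655 at 29 bp downstream of its 5' end. The cyk-4 peak was shared with pdr-1. It had rank 3668 in replicate 2 and no summit within 100 bp in replicate 1. The calmodulin gene cmd-1 had only a pooled region of rank 19575. Of the genes that regulate MEI-1, 3 of 6 were bound, namely the phosphatase subunit genes ppfr-1 (rank 610) and pph-4.1 (rank 1258) and the ubiquitin ligase scaffold gene cul-3 (rank 2424). The gene mel-26, which links MEI-1 to CUL-3 for its destruction in the embryo, and the kinase gene mbk-2 had no pooled region, and ppfr-4 had one of rank 6101. Both other microtubule-severing genes were bound, figl-1 at rank 1432 and the spastin gene spas-1 at rank 1803. The figl-1 summit lay 999 bp upstream, just inside the window, and was shared with mcm-7, a replicative helicase gene, and hpo-18.

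Dynein and dynactin genes had peaks of middling rank in 8 of 14 cases (57.1%), against 14.2% of all genes. The same 14.2% applies to the following lists. The strongest were at nud-1 (rank 546), dlc-1 (rank 1358), dnc-4 (rank 1513) and dli-1 (rank 1552), while dnc-5 had no pooled region, dnc-6 had one of rank 14079 and dyci-1 one of rank 9542. Of the spindle microtubule-associated protein genes 5 of 10 were bound, led by tac-1 (rank 251) and zyg-9 (rank 742). The products of tac-1 and zyg-9 form a complex that promotes microtubule growth. Then came spd-1 (rank 1335) and cls-2 (rank 1974). The peaks of tac-1, zyg-9, spd-1 and cls-2 were each shared with another protein-coding gene. The zyg-9 and spd-1 summits lay 954 and 935 bp upstream, near the edge of the window. The related genes cls-1 and cls-3 had no pooled region, and ebp-1 had one of rank 18318. Of the chromosomal passenger and Aurora kinase genes 4 of 5 were bound, csc-1 at rank 315, icp-1 at rank 806, bir-1 at rank 2382 and the Aurora B gene air-2 at rank 2669. The Aurora A gene air-1 had only a pooled region of rank 20818.

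**Figure D5:**
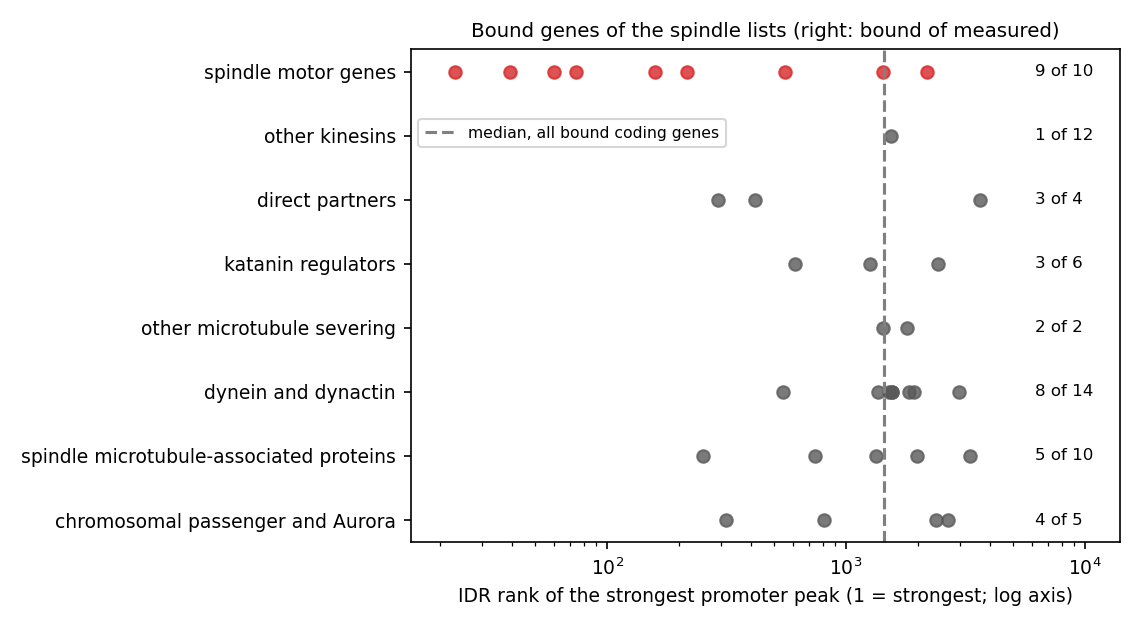
IDR rank of the strongest promoter peak of each bound gene (log axis, 1 is strongest) for the spindle motor genes and 7 related lists, with the number bound of those measured at the right and the median of all bound protein-coding genes dashed. The strongest peak of a related gene has rank 251, and 6 of the spindle motor genes lie to the left of it.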

How the data were processed

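ChIP-seq peak lists of 2 biological replicates of 1 strain were used. The submitters called regions for every replicate, and for the replicates merged, relative to a control that is not used here, on assembly ce11, per the deposited README of each sample. The sources used here do not name the caller, the aligner, the IDR threshold or the depth. Chromatin had been sonicated to 200 to 800 bp, per the labels. The deposited signal value of each region is on the caller's own scale and was used to rank regions within a list. The −log10 q-value is a further deposited column and entered no comparison.

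Genes came from Ensembl release 115 and sequence from RefSeq, both of WBcel235, the same build as ce11. A gene was called bound when its promoter window (1000 bp upstream to 200 bp downstream of the 5' end) held an IDR summit. Trans-splicing of worm transcripts can hide the true start, which may be upstream of the annotated one. The members, the related lists and the words were chosen with earlier results of these data known, so lists are described by counts and medians beside all genes, with no test. Of 55 related names, 2, the kinesin names klp-8 and klp-10, were in no annotation record and are not used. The genes named are the members, genes that share their peaks, up to 4 bound and up to 3 unbound genes of each related list, and for the 3 best-ranked members the gene whose replicate ranks were nearest. Genes at the 3' ends, and those with a word match, were named after their values were seen. The assignment of peaks to promoter windows was tested on simulated peaks, and the other steps were not. Alternatives were stricter and wider peak sets, each replicate's own top list, other windows and gene assignments, other match distances and other word settings. Python 3.11.15 was used with numpy 2.4.6 and matplotlib 3.10.9.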

Additional observations from a re-analysis of the deposited data

How the results depend on the processing

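No paired analysis was possible because there was 1 group. The count of 9 bound members stayed between 8 and 10 in every setting tried except the closest gene alone, where it was 5; without replicate 1 or without replicate 2 it was 9. The gene mei-1 was lost with the upper 50% of peaks and with the window of 500 bp upstream to 100 bp downstream. With 2000 bp upstream klp-7 was bound as well. The share of all genes called ran from 9% with the upper 50% of peaks to 36.7% with any pooled region. Of the 53 related genes 18 were bound with the narrow window, where 11.3% of all genes were, and 38 with any pooled region. With the closest gene alone 22 of the 53 were bound, where 10.2% of all genes were. The median rank of the member peaks, 159, was 158 with the ranks of replicate 1 alone and 162 with those of replicate 2 alone. With a match distance of 50 bp, 8 members were supported in both replicates. The one lost was mei-1, whose replicate 1 summit lay 71 bp from the IDR summit. The share of all bound genes at 50 bp was not counted. Within 100 bp of the summit, 2 members held a word of the ACTGTA group in place of 1. The share of all IDR summits at that distance was not counted, so the 2 cannot be called many or few. Within 50 bp, 4 members held one of 5 words, where 46.8% of all IDR summits did. The count of genes with a summit at the 3' end, 7 within 200 bp, was 3 within 100 bp (1.71% of all genes), 7 within 300 bp (5.03%), and 6 to 7 with each replicate's own top list. With any pooled region it was 9, and the share of all genes was not counted there. The settings with 5 words and those for the 3' ends were chosen after seeing the data. The unknown depth limits what the missing peak in the klp-7 window can show: no region was called there.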
